A study of Mus musculus with 8 samples.

Results

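The acute phase response and the IL-6 and IL-1 pathways that drive it were followed through 32 named genes in mouse liver: 3 receptor chains, 3 transcription factors, 3 inhibitors of signalling, and secreted or inducible products of the response for the rest. The genes were taken by symbol from a list drawn up with earlier results of these data known, by a rule that itself uses no measured value, and all 32 were found among the 55401 gene identifiers of the count table. All 32 also passed the filter on low counts, which kept 17669 genes for testing. The livers came from NOD Scid Gamma (NSG) mice, an immunodeficient strain without mature lymphocytes, whose age the labels do not give. Every host carried a subcutaneous xenograft of a human colorectal cancer line, either Colo201, which the series' design text calls FGF19-Hi, or HCT116, which it calls FGF19-Lo. FGF19 is a gut hormone that acts on hepatocytes through FGFR4 and its co-receptor beta-klotho. Each group had 4 libraries, named 2L, 2R, 4L and 4R in the Colo201 group and 1L, 1R, 3L and 3R in the HCT116 group. Title numbers 1 and 2 were labelled male and 3 and 4 labelled female, so each line had 2 libraries of each label. Each group rests on 1 cell line, no host without a tumour was analysed here, and FGF19 is only 1 of the features in which the lines can differ.

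Whether L and R stand for different animals is not stated, so the p-values reflect library-to-library spread that may be technical. Library totals were 61347603 to 65457482 counts. In all 8 libraries the sex chromosome genes went against the sex label: Xist, expressed from the inactive X chromosome, measured 253 to 366 CPM (each count relative to the TMM-scaled library total) where the label was male and 0.275 to 0.805 CPM where it was female. Ddx3y, a Y-linked gene, was at 0 CPM and at 37.6 to 63.4 CPM respectively. The words "labelled male" and "labelled female" are therefore used for the labels alone. Albumin took 7.51 to 12.0% of the counts.

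In the acute phase response, hepatocytes change which plasma proteins they make when cytokines reach the liver. IL-6 binds its receptor Il6ra, which recruits the shared chain Il6st (gp130) and activates JAK kinases and Stat3. IL-1 binds Il1r1 and activates NF-kB, and the C/EBP factors Cebpb and Cebpd act with both arms at the promoters of many acute phase genes. In mouse liver, serum amyloid A is known as the most steeply induced product, with haptoglobin, hemopexin, orosomucoid and lipocalin 2 also induced, whereas albumin and transferrin are products that fall.

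Between the lines, 5 of the 32 genes differed by edgeR's quasi-likelihood test with Benjamini-Hochberg adjustment over all 17669 genes (adjusted p under 0.05, here termed called). Both receptors that bind a cytokine directly, Il6ra and Il1r1, were lower in livers of Colo201 hosts, as were the secreted proteins Orm2 and Fgl1, and Lcn2 was higher. That is 15.6% of the members against 4.78% of all genes tested, with 1 member higher (2.48% of all genes) and 4 lower (2.3%). The other 27 were not called, among them all 4 serum amyloid A genes, Hp, Hpx, Socs3 and Stat3. The median log2 fold change over the members was -0.02, beside 0.00 over all genes, and 12 members had an unadjusted p under 0.05. With RLE in place of TMM scaling, 3837 of 17669 genes were under 0.05 by edgeR. By sign, 14 fold changes were positive and 18 negative. With L and R of a title number summed to 1 sample, edgeR called 0 members, and the 5 had adjusted p of 0.102 to 0.139; without the sex label as a covariate only Il1r1 was called. In bulk liver RNA, fewer cells of a type and less RNA per cell cannot be told apart.

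**Figure D1:**
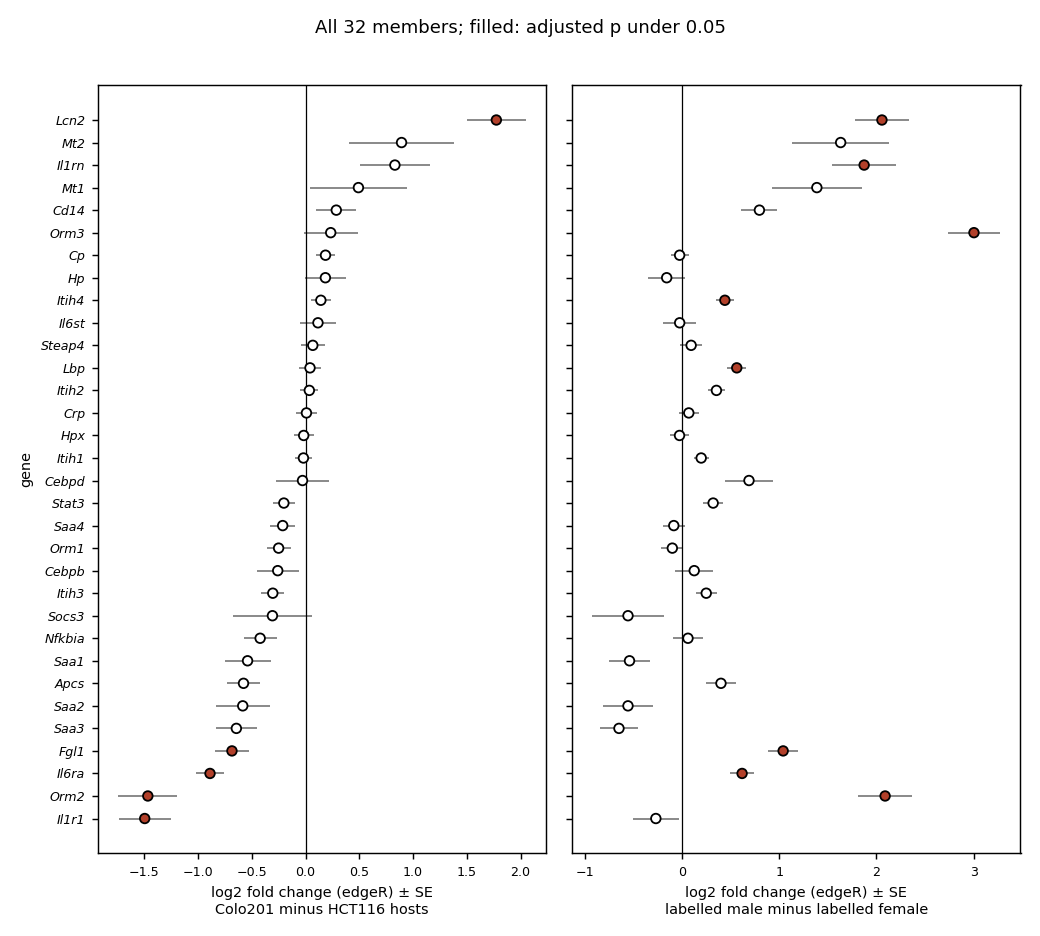
Log2 fold changes from edgeR with their standard errors for all 32 genes, for Colo201 minus HCT116 hosts (left) and for libraries labelled male minus labelled female (right), both sorted by the left panel; filled points had an adjusted p under 0.05. In the left panel 1 filled point lies above 0 and 4 below, and in the right panel all 8 filled points lie above 0.

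Il6ra, the ligand-binding chain of the IL-6 receptor, had 58.1, 67.4, 33.9 and 43.2 CPM in the Colo201 libraries (2L, 2R, 4L, 4R) and 108, 111, 86.7 and 64.5 CPM in the HCT116 libraries (1L, 1R, 3L, 3R). Colo201 2R lay above HCT116 3R, so the lines overlapped, but within each sex label both Colo201 libraries lay below both HCT116 libraries. The means were 50.6 ± 15.0 and 92.7 ± 21.7 CPM (SD, n = 4), giving a log2 fold change of -0.89 (SE 0.126, edgeR adjusted p = 0.0112) or 1.85-fold lower in Colo201 hosts. The call held without each library in turn, with adjusted p from 0.0220 to 0.0405. The gene is on the minus strand of chromosome 3 (GRCm38, 89864059 to 89913196), where the opposite-strand gene Gm42809 overlaps it, and the strand setting of the counting is not given in the sources used here.

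Il1r1, the signalling receptor for IL-1, had 20.2, 16.3, 16.2 and 33.5 CPM in the Colo201 libraries and 47.4, 69.1, 71.3 and 52.6 CPM in the HCT116 libraries, in the same order. It was the only member whose 4 Colo201 libraries all lay on one side of the 4 HCT116 libraries, where 12.3% of all genes tested did so, 6.04% with Colo201 lower and 6.27% with Colo201 higher. The means were 21.5 ± 8.16 and 60.1 ± 11.9 CPM, a log2 fold change of -1.50 (SE 0.243, edgeR adjusted p = 0.0184) or 2.82-fold lower. Colo201 4R was the highest of its group, and without it the log2 fold change was -1.78. The edgeR call was lost by a small margin without Colo201 2L (adjusted p = 0.0511), HCT116 1R (0.0515) or HCT116 3L (0.0640). Il1r1 lies on the plus strand of chromosome 1 (GRCm38, 40225080 to 40317257) and overlaps Gm38070 on the same strand.

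Il6st, the shared signalling chain gp130, was not called. It had 138, 132, 122 and 111 CPM in the Colo201 libraries and 79.4, 132, 119 and 135 CPM in the HCT116 libraries, with a log2 fold change of 0.12 (SE 0.168, edgeR adjusted p = 0.746). The ratio of Il6st to Il6ra CPM was 2.38, 1.96, 3.59 and 2.58 in the Colo201 libraries and 0.734, 1.19, 1.37 and 2.09 in the HCT116 libraries. The ratio was higher in both Colo201 libraries than in both HCT116 libraries under each sex label, while HCT116 3R lay above Colo201 2R across labels. This ratio compares the lines within 1 pair of genes and is not a ratio of molecules, since the lengths of the genes differ.

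**Figure D2:**
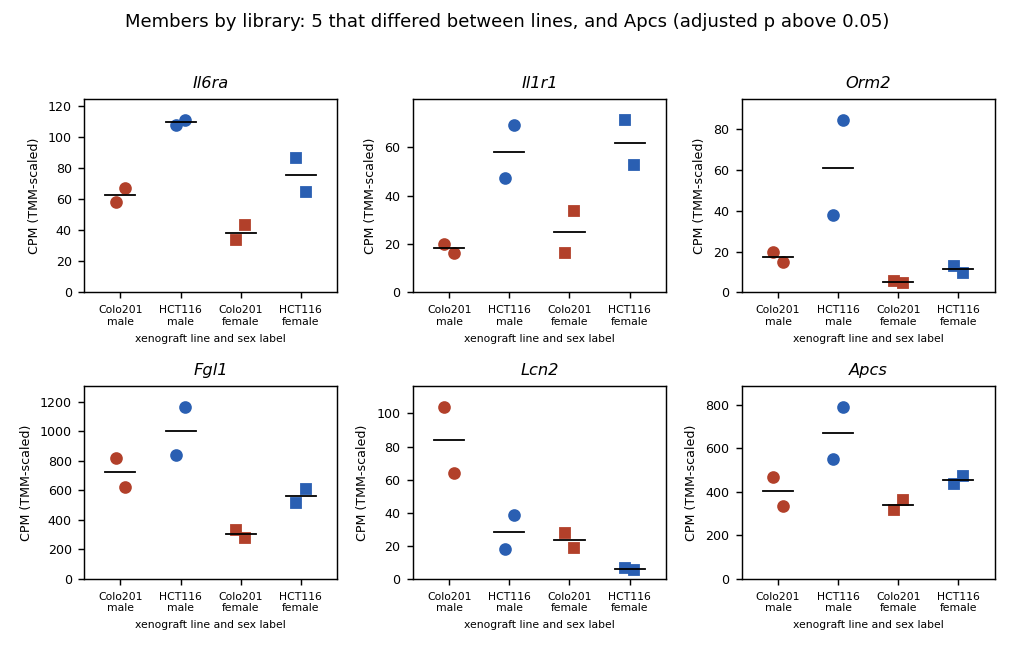
CPM by library for the 5 members that differed between lines and for Apcs (edgeR adjusted p = 0.0684), grouped by xenograft line and sex label; each point is a library and each bar the mean of 2. Il1r1 separates the lines over all 8 libraries, and the other 5 genes separate them within each sex label.

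Start regions of called genes are printed for the presence or absence of the response elements of this pathway. The RefSeq promoter table (GRCm38.p6) had windows for 26 of the 32 members and for 4 of the 5 called ones. In the 250 bases before each start, 4 short motifs were searched on both strands, without removing overlaps between motifs: TTCNNNGAA for STAT factors, TTGCNNAA for C/EBP, GGNNTTTCC for NF-kB and TGCNCNC for the metal response factor. The window of Il6ra (chr3:89913197-89913446, minus strand) held no match to any of the 4 motifs and is in lower case throughout. The first window of Il1r1 (chr1:40224830-40225079, plus strand) held 1 C/EBP match, in capitals; its second window (chr1:40266336-40266585) held 2 metal response matches and is not printed.
Il6ra: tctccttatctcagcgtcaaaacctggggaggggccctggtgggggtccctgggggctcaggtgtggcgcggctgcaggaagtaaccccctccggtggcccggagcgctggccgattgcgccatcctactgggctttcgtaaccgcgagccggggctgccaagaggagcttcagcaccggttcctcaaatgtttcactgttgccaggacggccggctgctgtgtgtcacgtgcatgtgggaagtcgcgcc
Il1r1: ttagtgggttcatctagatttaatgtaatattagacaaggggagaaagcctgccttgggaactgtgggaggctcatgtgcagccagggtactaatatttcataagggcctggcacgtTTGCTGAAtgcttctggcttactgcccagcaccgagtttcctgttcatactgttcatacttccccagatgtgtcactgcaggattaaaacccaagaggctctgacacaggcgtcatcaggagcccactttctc

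Over all 32851 windows, 7.02% held the STAT motif, 9.56% the C/EBP motif, 4.93% the NF-kB motif and 44.4% the metal response motif. Of the 26 members with a window, 13 (50%) held the C/EBP motif in at least 1 window, 4 (15.4%) the STAT motif, 5 (19.2%) the NF-kB motif and 11 (42.3%) the metal response motif. The STAT matches were in Apcs, Itih4, Socs3 and Steap4, and the NF-kB matches in Cp, Il1rn, Nfkbia, Saa3 and Steap4. The C/EBP matches were in Cp, Hpx, Il1r1, Itih2, Lcn2, Mt2, Orm2, Orm3, all 4 serum amyloid A genes and Steap4. A match describes letters in a window and no binding was measured, and a member with more than 1 window had more chances of a match.

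The transcription factors and inhibitors of the pathway were not called between lines. Stat3, the factor that IL-6 activates, had 106, 118, 83.4 and 103 CPM in Colo201 and 143, 125, 110.0 and 95.6 CPM in HCT116 libraries. The groups overlapped, with a log2 fold change of -0.20 (SE 0.102, edgeR adjusted p = 0.292). Cebpb and Cebpd, the C/EBP factors of the response, had log2 fold changes of -0.26 (edgeR adjusted p = 0.495) and -0.03 (0.964). Socs3, the feedback inhibitor that IL-6 induces, had 11.9, 16.4, 17.2 and 35.9 CPM in Colo201 and 14.0, 30.8, 16.2 and 35.2 CPM in HCT116 libraries. In both lines the R library lay above the L library of the same title number for Socs3, and its log2 fold change was -0.31 (SE 0.364, edgeR adjusted p = 0.679). Nfkbia, the NF-kB inhibitor that NF-kB itself induces, had 29.7, 27.97, 35.4 and 33.7 CPM in Colo201 and 54.6, 42.2, 33.8 and 40.2 CPM in HCT116 libraries. HCT116 3L fell inside the range of the Colo201 libraries, and the log2 fold change was -0.42 (SE 0.154, edgeR adjusted p = 0.157). Il1rn, the IL-1 receptor antagonist, had 5.21, 13.1, 2.93 and 2.48 CPM in Colo201 and 5.79, 5.33, 1.91 and 0.868 CPM in HCT116 libraries. Its groups overlapped, with a log2 fold change of 0.83 (SE 0.325, edgeR adjusted p = 0.182).

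The orosomucoids (alpha-1-acid glycoproteins, plasma carriers of drugs and lipids) lie in tandem on chromosome 4 (GRCm38, 63344560 to 63365878, plus strand, in the order Orm1, Orm3, Orm2). Their coding sequences were 86.5 to 89.9% identical, so reads may have been split between them. Orm2 had 19.96, 14.9, 5.79 and 4.72 CPM in the Colo201 libraries and 37.9, 84.7, 13.0 and 9.64 CPM in the HCT116 libraries. The Colo201 libraries lay below the HCT116 libraries under each sex label, but the labels themselves were so far apart that the lines overlapped. The log2 fold change was -1.47 (SE 0.275, edgeR adjusted p = 0.0272), or 2.77-fold lower in Colo201 hosts (11.3 ± 7.34 against 36.3 ± 34.6 CPM, SD, n = 4). The edgeR call was lost without Colo201 2L (adjusted p = 0.0740), 2R (0.0647), 4L (0.0541) or 4R (0.0530) and without HCT116 3L (0.0824).

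Orm1, the most abundant orosomucoid, had 619, 472, 622 and 555 CPM in Colo201 and 587, 722, 651 and 739 CPM in HCT116 libraries, a log2 fold change of -0.25 (SE 0.112, edgeR adjusted p = 0.238). Orm3 had 12.2, 9.05, 2.11 and 1.22 CPM against 10.8, 11.6, 1.38 and 0.818 CPM, a log2 fold change of 0.23 (SE 0.253, edgeR adjusted p = 0.647). Of the family's FPKM, which is per length, Orm1 held 88.2 to 98.9%, Orm2 0.840 to 10.4% and Orm3 0.108 to 1.88%. The change in Orm2 therefore concerned a minor part of the family's RNA in these livers. Its 250-base window (chr4:63362199-63362448, plus strand) is printed because it is the one called orosomucoid, with the C/EBP match and, nearer the start, the metal response match in capitals. The corresponding 30 bases of Orm3 (chr4:63356026-63356055, plus strand) follow, with the C/EBP match in capitals, at 121 to 114 bases before the start against 120 to 113 in Orm2.
Orm2: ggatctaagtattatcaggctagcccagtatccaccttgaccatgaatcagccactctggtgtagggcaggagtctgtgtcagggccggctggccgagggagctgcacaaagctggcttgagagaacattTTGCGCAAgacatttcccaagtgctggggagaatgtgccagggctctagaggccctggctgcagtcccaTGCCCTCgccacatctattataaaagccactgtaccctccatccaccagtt
Orm3: gagggaacattTTGCACAAgacatttatca

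Serum amyloid A genes, whose products ride on high-density lipoprotein, lie together on chromosome 7 (GRCm38, 46711998 to 46754313). Saa1 and Saa2 had coding sequences 95.1% identical, so their counts may be shared. The 30 bases around their C/EBP matches (Saa1 chr7:46743144-46743173, minus strand; Saa2 chr7:46751639-46751668, plus strand) show how alike the starts of the pair are, with the match in capitals.
Saa1: ctgtgctcccaTTGCACAAtgagggagaat
Saa2: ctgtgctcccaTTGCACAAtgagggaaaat

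All 4 serum amyloid A genes had a negative log2 fold change and none was called. Saa1 had 31.4, 21.8, 47.1 and 33.5 CPM in Colo201 and 27.7, 52.9, 54.2 and 58.2 CPM in HCT116 libraries, a log2 fold change of -0.54 (SE 0.214, edgeR adjusted p = 0.189). Saa2 had 14.4, 9.74, 18.2 and 12.0 CPM against 10.1, 20.7, 25.02 and 27.9 CPM, a log2 fold change of -0.58 (SE 0.253, edgeR adjusted p = 0.224). HCT116 1L lay within the Colo201 range for both genes, and the ratio of Saa1 to Saa2 stayed between 2.08 and 2.80 in the 8 libraries. Saa3, the form made outside hepatocytes as well, had 2.61, 1.72, 3.08 and 2.97 CPM in Colo201 and 2.64, 3.40, 5.32 and 5.24 CPM in HCT116 libraries. It separated the lines under each sex label, and its log2 fold change of -0.64 (SE 0.193) had an edgeR adjusted p of 0.0982, and 0.0311 by DESeq2. Saa4, the constitutive form, ranged from 206 to 309 CPM with a log2 fold change of -0.21 (edgeR adjusted p = 0.330) and held 78.2 to 88.8% of the family's FPKM.

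**Figure D3:**
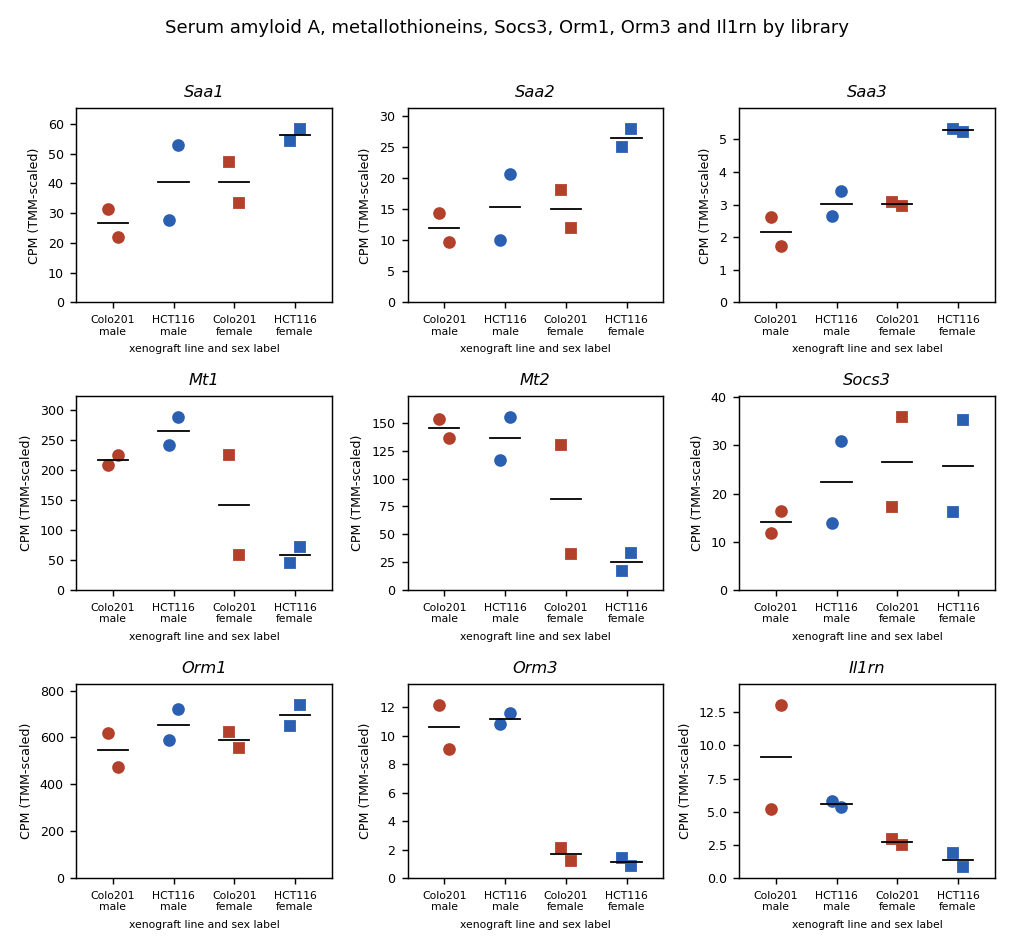
CPM by library for Saa1, Saa2, Saa3, Mt1, Mt2, Socs3, Orm1, Orm3 and Il1rn, grouped by line and sex label; each point is a library and each bar the mean of 2. Mt1 and Mt2 are low in Colo201 4R, HCT116 3L and HCT116 3R, and Orm3 and Il1rn separate the sex labels.

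Lcn2 (lipocalin 2), which withholds iron from bacteria by binding their siderophores, was the one member higher in Colo201 hosts. It had 104, 63.8, 28.03 and 18.7 CPM in Colo201 and 18.1, 38.7, 6.38 and 5.34 CPM in HCT116 libraries. Both Colo201 libraries lay above both HCT116 libraries under each sex label, while the lines overlapped across labels. The means were 53.6 ± 38.8 and 17.1 ± 15.5 CPM, a log2 fold change of 1.78 (SE 0.275, edgeR adjusted p = 0.0157) or 3.42-fold higher. Without HCT116 3L the edgeR adjusted p was 0.0634. Lcn2 is also expressed by neutrophils and other cells. Of 11 neutrophil markers 8 were tested and 0 were called between lines (4.78% of all genes). These markers summed to 1.38 to 7.18 CPM in Colo201 and 2.69 to 7.15 CPM in HCT116 libraries, and Camp was at 0 in all 8. Their part in the Lcn2 level was not tested. The gene is on chromosome 2 (GRCm38, 32384633 to 32388252, minus strand), and the 30 bases around the C/EBP match before its RefSeq start (chr2:32387937-32387966, minus strand) are printed with the match in capitals.
Lcn2: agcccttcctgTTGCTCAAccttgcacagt

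Fgl1 (fibrinogen-like 1, a hepatocyte-secreted protein) had 817, 625, 329.9 and 276 CPM in Colo201 and 839.6, 1166, 514 and 613 CPM in HCT116 libraries. Under each sex label both Colo201 libraries were the lower ones, by a small margin between Colo201 2L and HCT116 1L. The log2 fold change was -0.68 (SE 0.154, edgeR adjusted p = 0.0448), or 1.61-fold lower in Colo201 hosts. It was the called member nearest the threshold, and the edgeR call was lost without Colo201 2R (adjusted p = 0.0986), 4L (0.113) or 4R (0.0868) and without HCT116 1R (0.131), 3L (0.110) or 3R (0.0893). Fgl1 lies on chromosome 8 (GRCm38, 41191434 to 41215156, minus strand).

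Haptoglobin and hemopexin, which bind free haemoglobin and haem, were the most abundant members, at mean FPKM of 2166 and 2193, and neither was called. Hp had 4541, 3023, 5143 and 3593 CPM in Colo201 and 3007, 3895, 2926 and 4489 CPM in HCT116 libraries, overlapping ranges with a log2 fold change of 0.18 (SE 0.191, edgeR adjusted p = 0.631). Hpx ranged from 3217 to 4051 CPM over all libraries with a log2 fold change of -0.02 (edgeR adjusted p = 0.940). Cp (ceruloplasmin, the copper carrier) had a log2 fold change of 0.19 (edgeR adjusted p = 0.291). Of the pentraxins, which bind microbial surfaces and cell debris, Apcs (serum amyloid P) had 469, 337, 317 and 362 CPM in Colo201 and 549, 789.7, 437 and 473 CPM in HCT116 libraries. Apcs separated the lines under each sex label, and its log2 fold change of -0.58 (SE 0.151) had an adjusted p of 0.0684 by edgeR and 0.00378 by DESeq2. Crp, which is only weakly inducible in mice, ranged from 236 to 305 CPM with a log2 fold change of 0.01 (edgeR adjusted p = 0.974).

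The inter-alpha-trypsin inhibitor heavy chains, some of which are bound to hyaluronan in the matrix, were not called between lines. Their log2 fold changes were -0.02 for Itih1, 0.03 for Itih2, -0.31 for Itih3 (edgeR adjusted p = 0.143) and 0.14 for Itih4. Itih3 had 875, 952, 791 and 732 CPM in Colo201 and 1088, 1151, 1105 and 792 CPM in HCT116 libraries, so the lines were apart under each label, though Colo201 4L and HCT116 3R differed by little. Lbp and Cd14, which hand lipopolysaccharide to its receptor, and Steap4, a metalloreductase, had log2 fold changes of 0.04, 0.29 and 0.07 with edgeR adjusted p of 0.851, 0.414 and 0.784. The metallothioneins, small zinc- and copper-binding proteins induced by metals, glucocorticoids and IL-6, varied widely within groups. Mt1 had 209, 225, 226 and 59.4 CPM in Colo201 and 241, 289, 45.1 and 72.6 CPM in HCT116 libraries, and Mt2 had 153, 136, 130.4 and 32.5 CPM against 117, 155, 17.0 and 33.2 CPM. Colo201 4R, HCT116 3L and HCT116 3R, all labelled female, were low for both genes, and Colo201 4L, with the same label, was not. Neither was called between lines, with log2 fold changes of 0.49 (SE 0.454, edgeR adjusted p = 0.584) and 0.89 (SE 0.489, edgeR adjusted p = 0.334).

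Since line and sex label both moved several members, the separation of lines was also counted within each label. In 7 members both Colo201 libraries lay below both HCT116 libraries under each label: Il6ra, Il1r1, Orm2, Fgl1, Saa3, Apcs and Itih3, or 21.9% of the members against 10.7% of all genes tested. In 1 member, Lcn2, they lay above under each label, against 11% of all genes. The test within a label compares 2 libraries with 2 and called 0 members in libraries labelled male, where 0.232% of all genes were called, and 0 in those labelled female, where 0.492% were. At an unadjusted p under 0.05, edgeR gave 7 members in libraries labelled male and 8 in those labelled female. No count over all genes is given at that threshold. DESeq2 called 6 and 5 members, and 589 and 747 of all genes.

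The difference between lines had the same sign under both labels for the 5 called members. The log2 fold changes in libraries labelled male and labelled female were -0.81 and -0.97 for Il6ra, -1.68 and -1.32 for Il1r1, -1.81 and -1.11 for Orm2, -0.48 and -0.89 for Fgl1, and 1.56 and 1.99 for Lcn2. Mt1 went from -0.29 to 1.28 and Mt2 from 0.09 to 1.70 between the labels. The interaction of line and label, which tests that change itself, called 0 members (0.0283% of all genes), with an adjusted p of 0.99999 by edgeR for each of them. The smallest unadjusted p was that of Nfkbia (0.0228), with log2 fold changes of -0.75 and -0.10, and it was the only member under 0.05, where 4.1% of all genes were. This test rests on 2 libraries per combination, each with its own title number, so a dependence on the label and on the title number cannot be told apart.

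The comparison of sex labels called more members than that of lines. It called 8 of 32 genes by edgeR (25%, against 4.02% of all genes), all higher in libraries labelled male (1.96% of all genes) and 0 lower (2.06%). In order of size they were Orm3, Orm2, Lcn2, Il1rn, Fgl1, Il6ra, Lbp and Itih4. The median over the 32 members was 0.22 on the log2 scale, beside 0.00 over all genes. An unadjusted p under 0.05 was found in 19 members, for which no count over all genes is given. The lowest library labelled male exceeded the highest labelled female in 9 members, where 9.64% of all genes did not overlap and 5.06% were higher: Orm2, Orm3, Itih2, Itih4, Lbp, Cd14, Il1rn, Fgl1 and Cebpd. No member was lower without overlap, where 4.58% of all genes were.

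Orm3 showed the widest gap, at 9.05 to 12.2 CPM under the label male and 0.818 to 2.11 CPM under the label female. Its log2 fold change was 3.003 (SE 0.269, edgeR adjusted p = 0.000579), or 8.01-fold higher in libraries labelled male. Orm2, next to it, was 4.26-fold higher (log2 fold change 2.09, SE 0.280, edgeR adjusted p = 0.00563), at 14.9 to 84.7 against 4.72 to 13.0 CPM. Orm1, the third gene of the tandem, had a log2 fold change of -0.10 (edgeR adjusted p = 0.718), so the 2 minor genes differed by label and the abundant one was not called. Lcn2 was 4.16-fold higher (log2 fold change 2.06, SE 0.277, edgeR adjusted p = 0.00581), though HCT116 1L, labelled male, lay at 18.1 CPM below Colo201 4L and 4R. Fgl1 was 2.06-fold higher (log2 fold change 1.04, SE 0.155, edgeR adjusted p = 0.00882), at 625 to 1166 against 276 to 613 CPM. These 4 calls held without each library in turn. With L and R summed by title number, those of Orm3 and Lcn2 were kept (edgeR adjusted p of 0.0318 and 0.0262) and those of Orm2 (0.0552) and Fgl1 (0.0725) were lost.

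The other 4 calls by label were each lost without several single libraries, and with L and R summed by title number Il1rn (edgeR adjusted p = 0.0435) was the only one of the 4 kept. Il1rn was 3.67-fold higher in libraries labelled male (log2 fold change 1.87, SE 0.332, edgeR adjusted p = 0.0182), at 5.21 to 13.1 against 0.868 to 2.93 CPM. Its edgeR call was lost without Colo201 2R (adjusted p = 0.0724) or 4R (0.0551) and without HCT116 1L (0.0619) or 1R (0.0522). Lbp had 172, 173, 138 and 124 CPM in Colo201 and 177, 200.1, 108 and 118 CPM in HCT116 libraries, without overlap of the labels, and a log2 fold change of 0.56 (SE 0.0985, edgeR adjusted p = 0.0176). The edgeR call for Lbp was lost without HCT116 1L (0.0595), 1R (0.0508), 3L (0.0571) or 3R (0.0579). Il6ra had a log2 fold change of 0.62 (SE 0.125, edgeR adjusted p = 0.0322), in the direction of higher levels in libraries labelled male within each line. That call was lost without Colo201 2L (0.0521), 2R (0.0981), 4L (0.0618) or 4R (0.0544) and without HCT116 1L (0.0827), 1R (0.0877) or 3R (0.0799). Itih4 had 3019.5, 2708, 2298 and 1891 CPM in Colo201 and 2502, 2656, 2061 and 1759 CPM in HCT116 libraries, again without overlap of the labels, and a log2 fold change of 0.44 (SE 0.0905, edgeR adjusted p = 0.0331). The call for Itih4 was lost without Colo201 2L (0.0736), 2R (0.0688) or 4R (0.0771) and without HCT116 1L (0.0877), 1R (0.107), 3L (0.0538) or 3R (0.0963).

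Markers of several liver cell lists differed with the sex label, where 1.96% of all genes were called higher. The 14 Kupffer cell and macrophage markers summed to 589 to 688 CPM under the label male and 260 to 491 CPM under the label female, with 14 of 14 log2 fold changes positive and 3 called (Cd68, C1qa and Mrc1). The 10 endothelial markers summed to 379 to 425 against 238 to 311 CPM, with 5 called higher, and the neutrophil markers to 4.24 to 7.18 against 1.38 to 3.58 CPM, with 0 called. The 10 hepatocyte markers summed to 143613 to 177778 against 112180 to 135332 CPM, with 1 called higher. That sum is mostly albumin, which took 7.51 to 12.0% of the counts. Of the 10 log2 fold changes by label 6 were positive and 4 negative, with a median of 0.12. The stellate cell and cholangiocyte lists had 0 called by label, with median log2 fold changes of 0.01 and -0.21. By line, 0 markers of the Kupffer cell, endothelial and neutrophil lists were called, where 4.78% of all genes were. The Kupffer cell markers summed to 260 to 688 CPM in Colo201 and 430 to 639 CPM in HCT116 libraries. The cholangiocyte and stellate cell lists each had 1 marker called by line, where 2.48% of all genes were called higher. Of 10 cholangiocyte markers 1 was called higher in Colo201 hosts (Krt23, log2 fold change 4.13, edgeR adjusted p = 0.0169). The median log2 fold change of the list was 0.61, but -0.08 within libraries labelled male and 1.18 within those labelled female. The sums of the list were 50.6 to 99.6 CPM in Colo201 and 44.2 to 54.0 CPM in HCT116 libraries. Of 10 stellate cell and matrix markers 1 was called higher (Reln, log2 fold change 0.89, edgeR adjusted p = 0.0184). The sums of that list overlapped, at 262 to 271 against 194 to 280.4 CPM. Its median log2 fold change by line was 0.30 within libraries labelled male and -0.01 within those labelled female. The call of Krt23 was lost without HCT116 1R (adjusted p = 0.0546) or 3R (0.0515), and that of Reln without Colo201 4L (0.0565) or HCT116 1L (0.0569). The part of these cells in the levels of the members, by line or by label, was not tested. Colo201 4R had the lowest Kupffer cell sum (260 CPM), the highest sum of cholangiocyte markers (99.6 CPM), the highest Il1r1 of its line and the lowest Mt1 of its line.

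The RNA of Il6 was barely detected in liver. It was at 0 in 6 libraries and at 0.0677 and 0.1001 CPM in Colo201 2L and HCT116 3R, below the 0.178 to 0.203 CPM that a count of 0 allows if 3 fragments of 4 counts each are taken as the floor. Il1b ranged from 0.790 to 3.24 CPM (log2 fold change 0.33, edgeR adjusted p = 0.621) and Tnf from 0.130 to 0.866 CPM (log2 fold change -0.59, edgeR adjusted p = 0.568). Neither was called between lines. Tnf was at or below the floor of its library in Colo201 4L (0.188 CPM), Colo201 4R (0.130) and HCT116 3R (0.200). The fold change of Tnf is therefore uncertain. Other ligands of the lists were detected, among them Il1a at 2.29 to 6.31 CPM, the IL-6 family ligand Ctf1 at 4.50 to 7.11 CPM and Il18 at 6.69 to 11.7 CPM. None of these 3 was called by edgeR between lines (adjusted p of 0.907, 0.229 and 0.475), although Ctf1 was higher in the 4 Colo201 libraries than in the 4 HCT116 libraries. Cytokines made in the tumour or elsewhere are not seen by this measurement.

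Among 25 other genes of the IL-6 family and its JAK-STAT pathway, 21 were tested, with a median log2 fold change of 0.09. In Colo201 hosts 2 were higher (2.48% of all genes) and 0 were lower (2.3%). Both called genes are receptor chains that pair with Il6st. Lifr, the receptor for leukaemia inhibitory factor, had 453, 382, 345 and 483 CPM in Colo201 and 169, 205, 175 and 209.6 CPM in HCT116 libraries, a log2 fold change of 1.13 (SE 0.131, edgeR adjusted p = 0.00561). Il11ra1, the IL-11 receptor, had 55.7, 51.1, 54.7 and 53.9 CPM against 37.8, 35.8, 36.5 and 34.4 CPM, a log2 fold change of 0.58 (SE 0.0768, edgeR adjusted p = 0.00960). Neither overlapped between lines, and both calls held without each library in turn but were lost with L and R summed by title number (edgeR adjusted p of 0.0983 and 0.123). Of these partners of Il6st, Il6ra was therefore lower and Lifr and Il11ra1 higher in Colo201 hosts, while Il6st itself was not called. Osmr, another partner of Il6st in the list, was not called either (log2 fold change -0.40, edgeR adjusted p = 0.549).

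**Figure D4:**
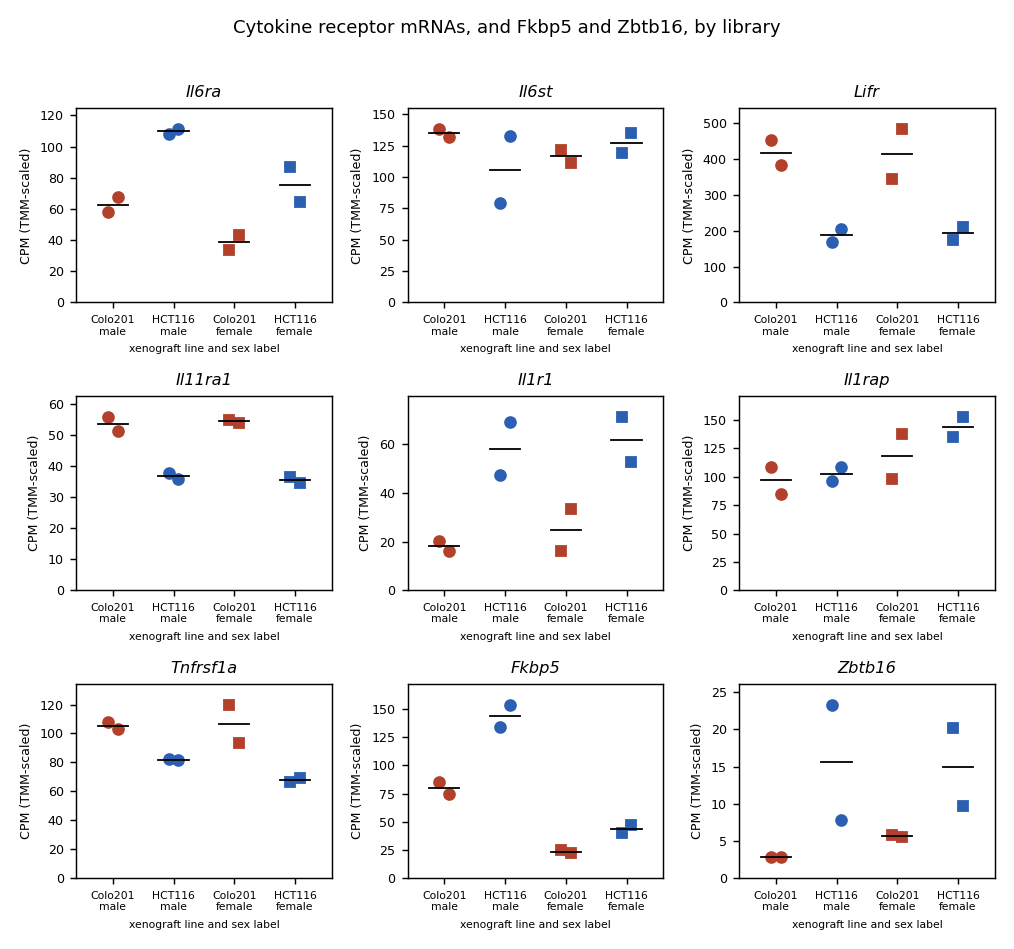
CPM by library for Il6ra, Il6st, Lifr, Il11ra1, Il1r1, Il1rap and Tnfrsf1a, and for the glucocorticoid-responsive genes Fkbp5 and Zbtb16, grouped by line and sex label; each point is a library and each bar the mean of 2. Lifr and Il11ra1 are higher and Il1r1 lower in all 4 Colo201 libraries than in all 4 HCT116 libraries, and Il6st overlaps.

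Of 36 genes of IL-1, TNF and Toll-like receptor signalling, 34 were tested, with a median log2 fold change of 0.16. In Colo201 hosts 1 was higher and 1 lower, near the shares over all genes (2.48% higher and 2.3% lower). Tnfrsf1a, the main TNF receptor, was higher in Colo201 hosts (106 ± 10.9 against 75.0 ± 8.12 CPM, log2 fold change 0.51, SE 0.104, edgeR adjusted p = 0.0338). Chuk, the kinase IKK-alpha, was lower (log2 fold change -0.40, SE 0.0896, edgeR adjusted p = 0.0435). Each of these 2 calls was lost without any 1 of Colo201 2L, 2R, 4L and HCT116 1L, 1R, 3L, 3R, with adjusted p of 0.0570 to 0.115 for Tnfrsf1a and 0.0765 to 0.114 for Chuk. Il1rap, the partner chain of Il1r1, was not called (log2 fold change -0.18, SE 0.134, edgeR adjusted p = 0.475).

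Of 16 other positive acute phase genes, such as the fibrinogen chains, C3, Hamp and Serpina3n, 0 were called by edgeR between lines (4.78% of all genes). The median log2 fold change was -0.11, and 3 had an unadjusted p under 0.05, as did 3837 of 17669 genes with RLE scaling. The 10 negative acute phase genes, whose products fall in the response, had a median of 0.20. Of them 4 were higher in Colo201 hosts (2.48% of all genes) and 1 was lower (2.3%). Apom, an apolipoprotein of high-density lipoprotein, had the smallest p of them (424 ± 46.8 against 239 ± 29.8 CPM, log2 fold change 0.83, SE 0.103, edgeR adjusted p = 0.00717). Transferrin (Trf, 0.51), Apoa1 (0.47) and Ahsg (0.37) were also higher, and Fetub was lower (-0.50), on the log2 scale. Albumin itself had a log2 fold change of 0.18 (edgeR adjusted p = 0.169). The Apom call held without each library in turn. With L and R summed by title number the edgeR adjusted p was 0.115 for Apom and 0.108 to 0.129 for the other 4, so 0 of these calls remained. The edgeR call of Trf was lost without Colo201 2L or 4L or any 1 HCT116 library (adjusted p of 0.0550 to 0.0759), and that of Apoa1 without Colo201 4L, HCT116 1R or HCT116 3L (0.0572 to 0.0654). The edgeR call of Ahsg was lost without Colo201 2L or 4L or HCT116 1L, 1R or 3L (adjusted p of 0.0627 to 0.0895), and that of Fetub without any 1 of the 8 libraries (0.0513 to 0.0946).

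Of 14 glucocorticoid- and metal-responsive genes, 13 were tested, with a median of -0.09 on the log2 scale. In Colo201 hosts 0 were higher (2.48% of all genes) and 2 were lower (2.3%). Fkbp5, a chaperone of the glucocorticoid receptor that glucocorticoids induce, had 85.4, 74.5, 24.6 and 22.5 CPM in Colo201 and 134, 154, 40.3 and 47.5 CPM in HCT116 libraries. It separated the lines under each label (log2 fold change -0.87, SE 0.0955, edgeR adjusted p = 0.00469) and the labels themselves (1.74, SE 0.0975, edgeR adjusted p = 5.05e-05). The Fkbp5 call between lines was lost without the sex label as a covariate (edgeR adjusted p = 0.487) and with L and R summed by title number (0.102). Zbtb16, another glucocorticoid-induced gene, had a log2 fold change of -1.92 (SE 0.394, edgeR adjusted p = 0.0344), a call lost in 11 of 21 alternatives. The edgeR call was lost without any 1 of the Colo201 libraries, HCT116 1R or HCT116 3L (adjusted p of 0.0508 to 0.117). It was also lost without the covariate (edgeR adjusted p = 0.0691) and with L and R summed by title number (0.122). By limma voom the adjusted p was 0.0585, and by limma on log2 FPKM it was 0.0540 or 0.0769. Of 9 C/EBP partners and hepatocyte transcription factors, 0 were called by edgeR between lines (4.78% of all genes). An unadjusted p under 0.05 was found in 3 of them, and in 3837 of 17669 genes with RLE scaling.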

How the data were processed

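The 8 liver RNA libraries were made with a stranded mRNA kit, per the labels' protocols. HISAT2 and StringTie with GRCm38 (mm10) are named in the submitters' processing notes; no source used here gives their versions, the annotation or the strand setting. The authors deposited a table of estimated counts per gene, in whole numbers, and a table of FPKM. How the estimated counts were derived from reads is not given, and 43.9 to 45.0% of values from 1 to 16 were multiples of 4, where an even spread gives 25%. Symbols came from GENCODE vM21 and matched 55141 of 55401 identifiers. No 2 libraries agreed within sampling noise (the lowest chi-square per gene over 28 pairs was 46.01). The arrangement of the deposited columns left 0 per-sample columns unused.

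Counts as deposited were scaled by TMM, filtered by filterByExpr (17669 genes kept) and tested with edgeR 4.0.16 (glmQLFit, glmQLFTest) in R 4.3.3, two-sided, with Benjamini-Hochberg adjustment over all genes tested and a threshold of 0.05. Line was tested with sex label as a covariate and sex label with line as a covariate (5 residual degrees of freedom). Comparisons within a label and the interaction (labelled female minus labelled male) came from a fit of 4 means (4 residual degrees of freedom); all 5 comparisons share libraries. Standard errors were taken from the fold change and its F statistic. The deposited FPKM served for levels between genes and in alternatives. DESeq2 1.42.0 and limma 3.58.1 served as alternatives.

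The members, the 14 gene lists, the tests and the alternatives were chosen with earlier results of these data known; summing libraries by title number for the sex label was added after seeing the data. All 32 members were to be given; per-library values were given for members called in any comparison or separating the lines and for 10 defining genes, and for members of the metallothionein, inhibitor and pentraxin groups chosen after their values were seen. From the other lists, genes called between lines and the ligands Il6, Il1b and Tnf were named, and Il1rap, Il1a, Ctf1, Il18, Alb and the sex-label result of Fkbp5 were added after values were seen. Sequences came from the RefSeq tables (GRCm38.p6). The floors cover counting error only, whereas the SDs and standard errors include the spread between libraries.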

Additional observations from a re-analysis of the deposited data

Results flagged for a closer look

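Mt1 in Colo201 4R was at 59.4 CPM, the lowest of the 4 Colo201 libraries, while the other 3 lay between 209 and 226 CPM. The gap to the nearest library was 0.900 of the range of the group, above Dixon's 95% critical value for 4 libraries. Over the 32 members in both lines, 64 groups were checked in this way and 1 passed that value, where chance passes about 1 in 20. Mt2 was also lowest in Colo201 4R, at 32.5 CPM, with a gap of 0.809 of the range. Without Colo201 4R the log2 fold change between lines was 0.67 for Mt1 and 1.07 for Mt2, and neither was called by edgeR.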

How the results depend on the processing

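For 46 genes compared between lines there were up to 21 alternatives, 8 of them leaving out 1 library. For 8 of these genes compared between sex labels there were 12 alternatives. Of 1059 values, 917 kept their side of the threshold, 139 lost the call, 3 gained it and 0 were called in the opposite direction. Among the 917, 28 uncalled values changed sign. Another scaling or leaving out the 20 most abundant genes moved the median of all genes by at most 0.03 on the log2 scale. Between lines, 845 genes were called by edgeR, 1993 by DESeq2, 155 without the sex label as a covariate, 3 with libraries summed by title number (3480 at an unadjusted p under 0.05) and 182 to 549 without 1 library. Of the members, 1 was higher and 4 lower; without the covariate these were 0 and 1, with libraries summed by title number 0 and 0, and without 1 library 0 to 1 and 1 to 4. Summing leaves 4 samples, and its cause beyond fewer samples was not tested. Il6ra kept its call in 19 of 21 alternatives. Within the label male, 41 genes were called by edgeR, 589 by DESeq2 and 0 to 49 without 1 library, and DESeq2 called 1 member higher and 5 lower. Within the label female, 87 genes were called by edgeR, 747 by DESeq2 and 18 to 79 without 1 library, and DESeq2 called 1 member higher and 4 lower. The interaction called 5 genes by edgeR, 53 by DESeq2 and 0 to 13 without 1 library. By sex label 710 genes were called by edgeR, 1585 by DESeq2, 141 with libraries summed by title number (chosen after seeing the data) and 314 to 639 without 1 library; of the members, 8 were higher, 3 with libraries summed, 4 to 9 without 1 library, and DESeq2 called 1 lower. No paired analysis was possible because the lines share no title number in the labels. At these depths 1 fragment of 4 counts is worth about 0.0594 to 0.0677 CPM, so Il6 cannot be compared between lines.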
